A study of Mus musculus with 8 samples.

Results

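The genes described here encode subunits of respiratory complex I, the NADH dehydrogenase of the inner mitochondrial membrane. They were chosen by name: 36 nuclear genes of the Nduf families, each matched to a row of the deposited expression table. All 36 had a row among the 20258 rows with a gene symbol, and all 36 were among the 13615 genes whose values varied and could be tested. The data came from macrophages grown from bone marrow of C57BL/6 mice, in 8 bulk 3' end RNA-seq libraries collected after 24 h. Macrophages without stimulus gave 2 libraries, macrophages given the cytokine IL4 gave 3, and macrophages given LPS plus IFNg, a bacterial cell-wall lipopolysaccharide with the cytokine interferon gamma, gave 3. Titles of the stimulated libraries begin with M (MandIL4 and MandLPSandIFNg), which the Ctrl titles lack, and do not say what it stands for. Beyond this letter, no other agent or allele is named for any group. The labels do not say whether libraries of a group came from separate cultures or animals, so the p-values reflect only library-to-library spread, which may be technical.

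Complex I oxidises NADH, passes the electrons to ubiquinone and pumps protons out of the mitochondrial matrix. Its matrix arm carries the flavin and the iron-sulfur clusters, and its membrane arm carries the proton pumps, whose core subunits are encoded by mitochondrial DNA. Core subunits do the catalysis, and supernumerary subunits surround them and are needed for assembly and stability. Macrophages given IL4 are known for relying on oxidative phosphorylation, whereas macrophages given LPS with IFNg are known for glycolysis and for making nitric oxide, which inhibits respiration.

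The list is not all of complex I. The subunits encoded by mitochondrial DNA and some nuclear ones are not reported here. The list includes Ndufa4, which was first purified with complex I and is now placed in complex IV, cytochrome c oxidase. All counts of members below include Ndufa4.

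Between macrophages given LPS plus IFNg and those given IL4, 9 of the 36 members fell (25.0%, against 6.96% of all genes) and none rose, and the mean of each of the 36 was lower after LPS plus IFNg. Against unstimulated macrophages, 2 members fell after LPS plus IFNg, Ndufb7 and Ndufa4 (5.56%, near the 4.25% of all genes), and none passed the test after IL4. Ndufab1, the mitochondrial acyl carrier protein, stood near its unstimulated level after LPS plus IFNg. Its mean was higher by 1.54 after IL4, a difference that did not pass (limma adjusted p = 0.0625). Expression values are log2 values as deposited, so a difference of 1 is a change of 2-fold. The test was limma over all genes and all 8 libraries, and a gene passed at a Benjamini-Hochberg adjusted p under 0.05.

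The promoters of the 4 members with the smallest adjusted p between LPS plus IFNg and IL4 are shown so that a reader can see what precedes these genes. They run from 250 bases before the RefSeq start to the base before it, on the gene's strand, in build GRCm38.p6, while the expression table rests on build mm9. They lie at chr8:83566508-83566757 on the plus strand (Ndufb7), and on the minus strand at chr6:11907451-11907700 (Ndufa4), chr7:122101849-122102098 (Ndufab1) and chr17:66101560-66101809 (Ndufv2). Capitals mark matches, on either strand, to the motifs named after the sequences.
Ndufb7: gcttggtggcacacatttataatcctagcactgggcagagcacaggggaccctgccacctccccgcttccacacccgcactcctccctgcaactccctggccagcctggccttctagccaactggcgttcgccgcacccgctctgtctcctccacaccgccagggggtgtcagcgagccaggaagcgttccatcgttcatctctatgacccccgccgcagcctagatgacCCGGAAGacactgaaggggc
Ndufa4: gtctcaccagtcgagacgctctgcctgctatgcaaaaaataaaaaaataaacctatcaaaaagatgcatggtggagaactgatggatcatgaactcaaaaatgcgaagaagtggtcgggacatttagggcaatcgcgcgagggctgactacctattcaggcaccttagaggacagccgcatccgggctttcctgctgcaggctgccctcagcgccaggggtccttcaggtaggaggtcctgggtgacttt
Ndufab1: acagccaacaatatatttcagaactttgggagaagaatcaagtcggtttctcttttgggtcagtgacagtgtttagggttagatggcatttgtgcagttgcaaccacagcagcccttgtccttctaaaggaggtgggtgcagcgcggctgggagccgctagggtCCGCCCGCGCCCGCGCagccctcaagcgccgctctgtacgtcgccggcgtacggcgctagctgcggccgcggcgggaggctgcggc
Ndufv2: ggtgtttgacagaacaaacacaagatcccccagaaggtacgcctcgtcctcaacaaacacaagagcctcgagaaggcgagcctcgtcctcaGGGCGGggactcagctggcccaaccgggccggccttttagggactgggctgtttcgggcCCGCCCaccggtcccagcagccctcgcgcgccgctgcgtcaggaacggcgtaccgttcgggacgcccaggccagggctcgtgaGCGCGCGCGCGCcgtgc
The Ndufb7 promoter holds the letters CCGGAAG, an ETS motif of the kind bound by GABP (NRF2). The Ndufa4 promoter holds none of the motifs searched. In Ndufab1 a GC box (GGGCGG, read here on the other strand) directly precedes a match to GCGC, any 2 bases and GCGC again, the motif of NRF1, a regulator of nuclear genes for mitochondrial proteins. The Ndufv2 promoter holds 2 GC boxes and 2 NRF1 matches that overlap each other. The motifs were chosen after these windows had been seen, and a match is a description of letters, not of binding.

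Over windows from 250 bases before to 50 after the start, 33 of the 36 members matched a RefSeq promoter; Ndufs1, Ndufb9 and Ndufa2 did not. The NRF1 letters were in 9 of these 33 members, against 7.0% of 27025 genes with such a window. They were in 4 of the 9 members that fell between LPS plus IFNg and IL4: Ndufa5, Ndufa8, Ndufab1 and Ndufv2. AAGATGGCG, the motif of the factor YY1, was in 5 of 33 members against 1.64% of genes, and in 0 of the 9 that fell. The ETS letters were in 4 of 33 against 9.93% of genes, and GGGCGG in 15 of 33 against 38.2%.

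Quantile normalisation by the authors made libraries alike in their overall distribution: the median of genes with a mean of at least 5 was 7.37 to 7.41 in every library. Read depth is unknown, since the table holds no counts. Between 1577 and 3568 of the tested genes were listed at exactly 0 per library. There were 1577 and 2588 such genes without stimulus, 3204 to 3568 after IL4 and 2964 to 2985 after LPS plus IFNg. The zeros thus moved with the groups, and their part in the comparisons with unstimulated macrophages was not tested. The stimuli showed in their known targets: Arg1, an arginase induced by IL4, was 13.41 to 13.69 after IL4, 2.31 and 4.19 without stimulus and 7.57 to 7.80 after LPS plus IFNg, and Nos2, the inducible nitric oxide synthase, was listed at 0 in all libraries except 10.06, 10.43 and 10.18 after LPS plus IFNg. All 9 macrophage markers were above 0 in every library, with a mean level of 9.97 and 9.99 without stimulus, 8.20 to 8.34 after IL4 and 9.53 to 9.82 after LPS plus IFNg. The 7 neutrophil markers averaged 6.96 and 7.08 without stimulus, 5.04 to 6.71 after IL4 and 3.23 to 3.75 after LPS plus IFNg, where Mpo was listed at 0 in all 3 libraries; 3 of the 7 fell between LPS plus IFNg and IL4. Fibroblast markers averaged 5.73 to 7.69 over the libraries, with Col1a2 between 9.66 and 11.11. Of 6 lymphocyte markers, 3 to 6 were listed at 0 per library. The macrophage and neutrophil markers moved with the groups, and their part in the complex I differences was not tested. In bulk libraries fewer cells of a type and less RNA per cell cannot be told apart.

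The 36 members were read first as a group. The median over the members was 7.54 and 7.72 in the unstimulated libraries, 7.86, 7.94 and 7.85 after IL4, and 7.01, 6.83 and 7.00 after LPS plus IFNg. All 3 LPS plus IFNg libraries lay below all 5 others, and all 3 IL4 libraries lay above the unstimulated ones. Single members varied more between libraries of a group than this median did: their within-group SD was 0.48 in the median, from 0.14 for Ndufa2 to 1.64 for Ndufb2, against 0.09 for the library medians. Ndufb2 and Ndufs8 had means under 5, and Ndufb2 was the only member listed at 0 in any library (LPS plus IFNg replicate 1).

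**Figure D1:**
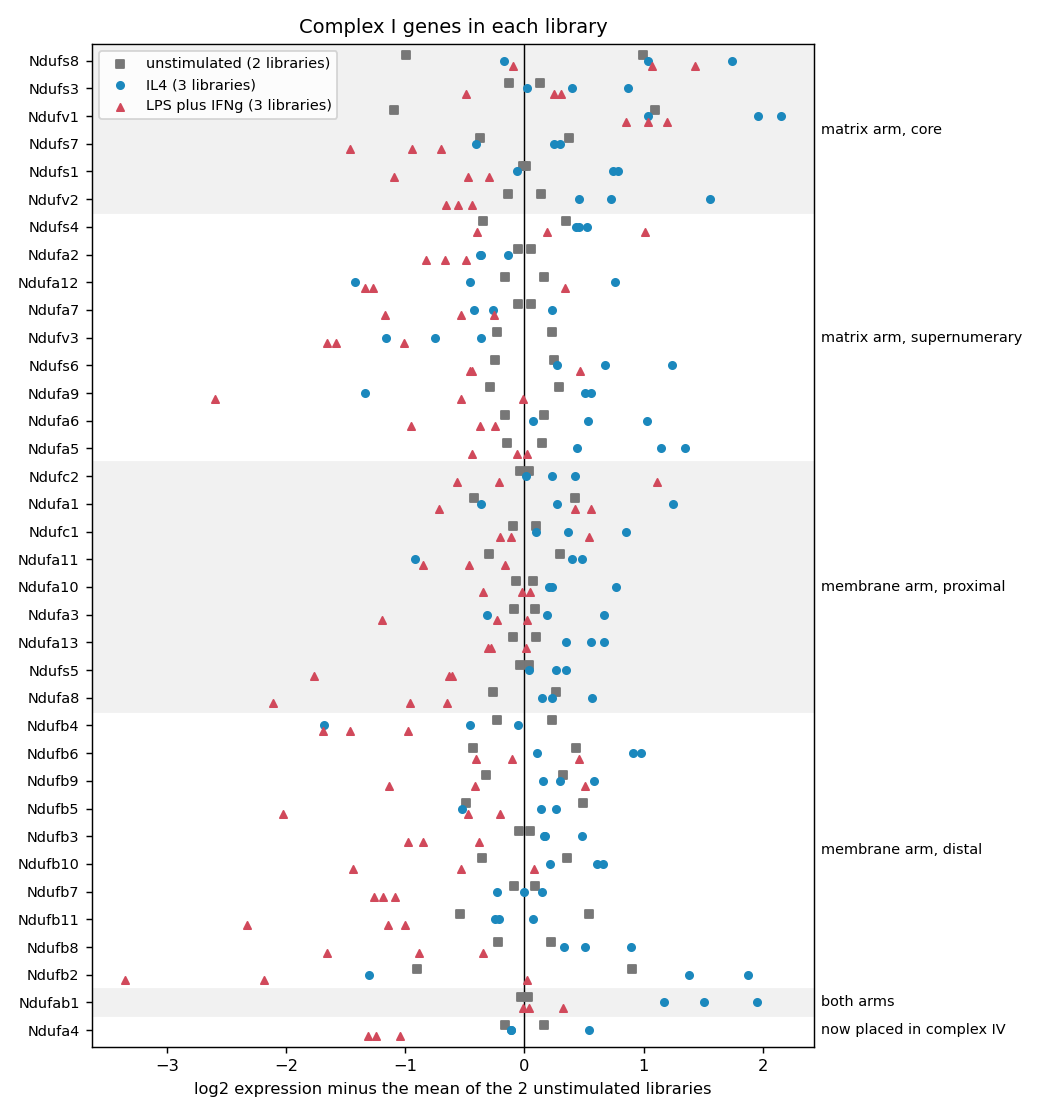
Log2 expression of each of the 36 members in each of the 8 libraries (points), as the difference from the mean of the 2 unstimulated libraries, with members grouped by arm. LPS plus IFNg libraries (triangles) lie mostly left of 0 and IL4 libraries (circles) mostly right of it, and Ndufb2 has the widest spread.

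The first comparison set macrophages given IL4 against unstimulated ones. No member passed, against 0.514% of all tested genes called higher and 0.793% called lower. At an unadjusted p under 0.05 in limma 4 members were higher and 0 lower (11.1% and 0.0% of members, against 5.53% and 6.57% of all genes). The mean was higher after IL4 for 26 members, where 44.6% of all genes had a higher mean, and the median difference was 0.36 over the members and -0.01 over all genes. The IL4 libraries lay wholly above the unstimulated ones for 11 members (30.6%, against 11.7% of all genes). They lay wholly below for 2 (14.7% of all genes), Ndufa2 and Ndufv3. Among genes with a mean of at least 5, 16.2% lay wholly above and 18.3% wholly below, against 32.4% and 5.88% of such members. At an unadjusted p under 0.05 in limma, 7.65% of those genes were higher and 9.17% lower, against 11.8% and 0.0% of those members.

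By arm, the median difference of IL4 from unstimulated was 0.68 over the 6 core subunits of the matrix arm, all 6 with a higher mean. It was -0.09 over the 9 supernumerary subunits of that arm, 0.32 over the 9 of the membrane arm near the matrix arm and 0.31 over the 10 Ndufb subunits of its far end. The largest single difference was that of Ndufv1, the subunit that binds NADH and the flavin. Its values were 5.13 and 2.94 without stimulus, 5.07, 6.19 and 6.00 after IL4, and 4.89, 5.23 and 5.07 after LPS plus IFNg. The unstimulated libraries were far apart and overlapped the others, and the difference of 1.72 (SE 0.76) had a limma adjusted p of 0.433.

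Ndufab1 had the smallest adjusted p of the members in this comparison. As the acyl carrier protein it serves mitochondrial fatty acid synthesis and lipoic acid supply, and it sits in both arms of complex I. Its values were 6.53 and 6.59 without stimulus, 8.07, 8.51 and 7.73 after IL4, and 6.60, 6.55 and 6.88 after LPS plus IFNg. The IL4 libraries stood apart from the other 5, which lay close together. IL4 differed from unstimulated by 1.54 (SE 0.29, limma adjusted p = 0.0625), which did not pass; with genes of mean below 5 left out of the test the adjusted p was 0.0461. LPS plus IFNg differed from unstimulated by 0.12 (SE 0.29, adjusted p = 0.9).

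The second comparison set LPS plus IFNg against unstimulated macrophages. Ndufa4 and Ndufb7 fell and no member rose: 5.56% of the members fell, near the 4.25% of all genes, while 3.72% of all genes rose. The mean was lower for 28 of 36 members, where 51.7% of all genes had a lower mean, and the median difference was -0.59 over the members and -0.04 over all genes. At an unadjusted p under 0.05, 11 members were lower and 0 higher (30.6% and 0.0%, against 10.9% and 8.47% of all genes). The LPS plus IFNg libraries lay wholly below the unstimulated ones for 15 members (41.7%, against 20.7% of all genes) and wholly above for 0 (16.1% of all genes). Among genes with a mean of at least 5, 27.4% lay wholly below and 6.19% fell, against 44.1% and 5.88% of such members. At an unadjusted p under 0.05 in limma, 15.4% of those genes and 32.4% of those members were lower.

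The Ndufb subunits at the far end of the membrane arm had the lowest median difference from unstimulated, -0.93, and all 10 had a lower mean. It was -0.66 for the supernumerary subunits of the matrix arm, -0.26 for its core and -0.20 for the near part of the membrane arm, where 3 of 6 core and 3 of 9 near subunits had a higher mean. Differences between arms were not tested.

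Ndufb7 is a small subunit on the intermembrane-space side with disulfide-bonded cysteine pairs. Its values were 9.16 and 8.99 without stimulus, 9.07, 9.22 and 8.84 after IL4, and 7.99, 7.81 and 7.89 after LPS plus IFNg. The 3 LPS plus IFNg libraries stood clear of the other 5, and the IL4 and unstimulated libraries overlapped. The means were 9.08 ± 0.12 (SD, n = 2), 9.04 ± 0.19 (SD, n = 3) and 7.90 ± 0.09 (SD, n = 3). Ndufb7 fell by 1.18 against unstimulated (SE 0.19, limma adjusted p = 0.0106), and it passed with any 1 of the 8 libraries left out, with an adjusted p of at most 0.0486.

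Ndufa4, the subunit now placed in complex IV, read 11.69 and 12.02 without stimulus. It read 11.74, 12.40 and 11.74 after IL4, and 10.61, 10.54 and 10.81 after LPS plus IFNg. Again the LPS plus IFNg libraries were the lowest and the other groups overlapped. Ndufa4 fell by 1.20 against unstimulated (SE 0.26, limma adjusted p = 0.0329). It did not pass with either unstimulated library left out (differences of -1.37 and -1.04 without replicates 1 and 2, adjusted p = 0.0875 and 0.199), nor with any 1 LPS plus IFNg library left out (-1.18, -1.15 and -1.28 without replicates 1, 2 and 3, adjusted p = 0.0845, 0.101 and 0.0617).

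The largest difference from unstimulated belonged to Ndufb2, a supernumerary subunit at the far end of the membrane arm. Its values were 2.45 and 4.26 without stimulus, 4.74, 5.23 and 2.05 after IL4, and 0.00, 1.17 and 3.38 after LPS plus IFNg. The groups overlapped and each was widely spread. It differed from unstimulated by -1.83 (SE 1.43, adjusted p = 0.573) after LPS plus IFNg. Just outside the threshold were Ndufv3, a supernumerary subunit of the electron input part, at -1.42 (SE 0.38, adjusted p = 0.0691), and Ndufa2, which has a thioredoxin-like fold, at -0.67 (SE 0.18, adjusted p = 0.0696; 0.046 with array weights).

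The third comparison set LPS plus IFNg directly against IL4. Of the 36 members, 9 fell (25.0%) and 0 rose, while 6.96% of all tested genes fell and 5.91% rose. Among genes with a mean of at least 5 the shares were 9 of 34 members (26.5%) and 10.4% of 7283 genes. All 36 members had a lower mean after LPS plus IFNg, where 47.5% of all genes did and 52.2% of those with a mean of at least 5. The median difference was -0.79 over the members and 0.00 over all genes, and members ranged from -2.49 for Ndufb2 to -0.07 for Ndufs8. The libraries did not overlap for 17 members, all lower (47.2%; 14.8% of all genes). At an unadjusted p under 0.05, 18 of the 36 were lower, as were 13.9% of all genes.

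For 18 of the 36 members the mean after IL4 lay above the unstimulated mean and the mean after LPS plus IFNg below it. The share of all genes with this order was not computed, so the count is a description only. The comparisons of IL4 and of LPS plus IFNg with unstimulated share the 2 unstimulated libraries. Of the 9 that fell between the stimuli, 8 had an IL4 mean above the unstimulated one (Ndufb7 did not). Likewise 8 had an LPS plus IFNg mean below the unstimulated one (Ndufab1 did not). These 9 were picked by their difference between the stimuli, so such positions follow in part from that choice. Their differences were 1.65 to 2.96-fold.

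**Figure D2:**
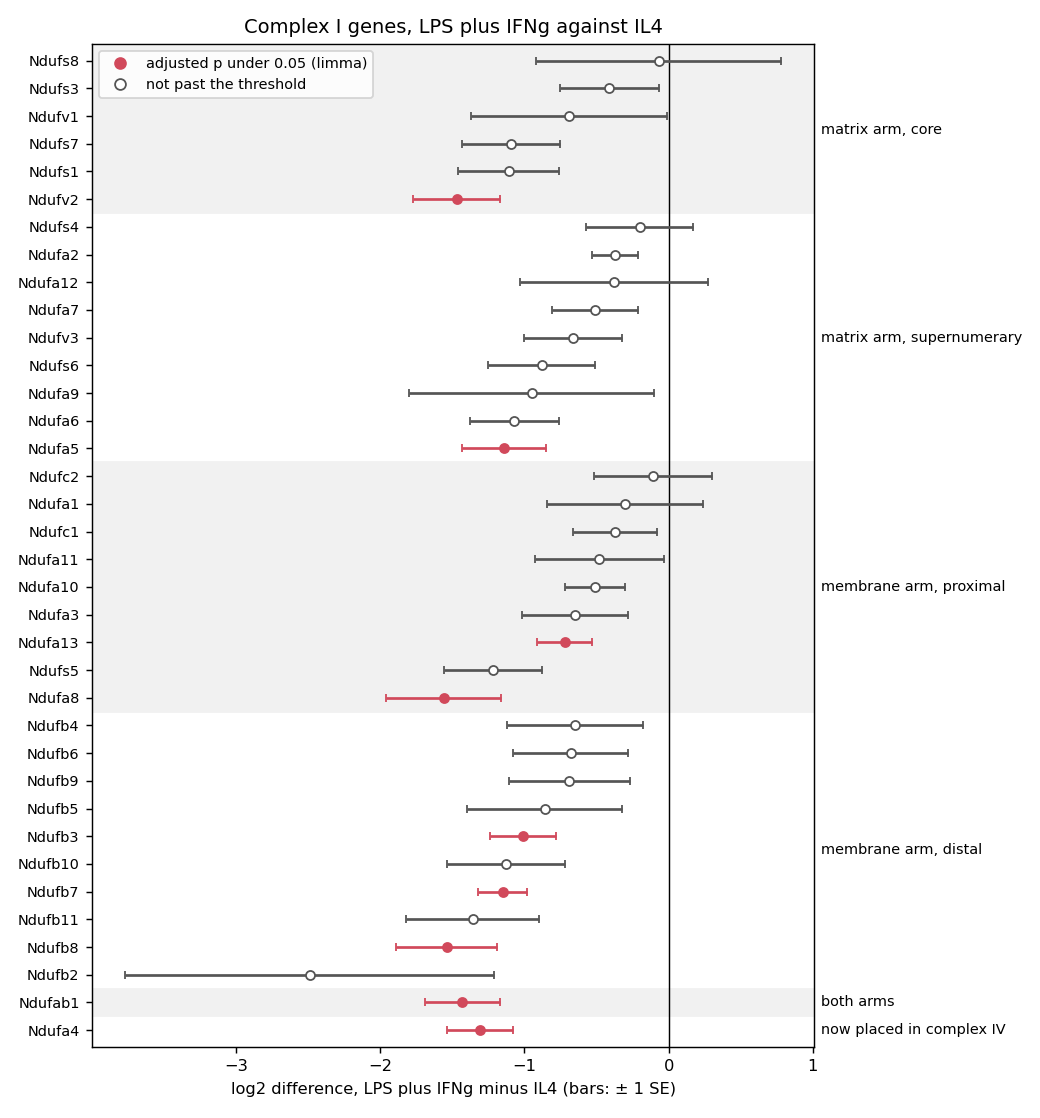
Log2 difference of each member between LPS plus IFNg and IL4 (points) with ± 1 SE from limma (bars), grouped by arm; filled points passed an adjusted p of 0.05. All 36 points lie below 0, from -0.07 for Ndufs8 to -2.49 for Ndufb2. The 9 filled ones include members of each arm, Ndufab1, which sits in both, and Ndufa4, now placed in complex IV.

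The smallest adjusted p values belonged to Ndufb7, Ndufa4 and Ndufab1, whose library values are given above. Ndufb7 fell by 1.15 (SE 0.17, limma adjusted p = 0.00508), Ndufa4 by 1.31 (SE 0.23, 0.0106) and Ndufab1 by 1.43 (SE 0.26, 0.0127). Each passed with any 1 of the 8 libraries left out, with adjusted p values of at most 0.0231, 0.0435 and 0.0468. The same size of difference came with other positions of the unstimulated libraries: they sat with IL4 for Ndufb7 and Ndufa4, and with LPS plus IFNg for Ndufab1.

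Among the 6 core subunits of the matrix arm, Ndufv2, which holds an iron-sulfur cluster beside the flavin, was the only member to fall. It read 7.65 and 7.93 without stimulus, 9.35, 8.25 and 8.52 after IL4, and 7.13, 7.23 and 7.35 after LPS plus IFNg. The groups did not overlap and the unstimulated libraries lay between the stimuli. Ndufv2 fell by 1.47 (SE 0.30, limma adjusted p = 0.0188). It did not pass without unstimulated replicate 2, LPS plus IFNg replicate 1 or LPS plus IFNg replicate 2 (adjusted p = 0.0527, 0.0587 and 0.0604).

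Ndufs1, the largest subunit of the electron input part, read 6.70 and 6.73 without stimulus, 6.65, 7.50 and 7.46 after IL4, and 5.62, 6.42 and 6.24 after LPS plus IFNg. Ndufs7, which carries the last iron-sulfur cluster before ubiquinone, read 7.89 and 7.14, then 7.11, 7.81 and 7.76 after IL4, and 6.57, 6.05 and 6.81 after LPS plus IFNg. For both genes every LPS plus IFNg library lay below every other library. Their differences of -1.11 (SE 0.35) and -1.09 (SE 0.34) did not pass, with adjusted p values of 0.0898 and 0.0893.

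Ndufs3, of the ubiquinone-binding part, read 6.74 and 6.48 without stimulus, 7.48, 7.01 and 6.63 after IL4, and 6.12, 6.92 and 6.86 after LPS plus IFNg. Ndufs8, an iron-sulfur subunit, read 4.93 and 2.94, then 3.76, 5.68 and 4.97 after IL4, and 3.84, 5.01 and 5.37 after LPS plus IFNg. In both the groups overlapped. The differences between stimuli were -0.41 (SE 0.34, adjusted p = 0.495) for Ndufs3, -0.07 (SE 0.85, 1.0) for Ndufs8 and -0.69 (SE 0.68, 0.567) for Ndufv1. The core median was -0.89.

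Of the 9 supernumerary subunits of the matrix arm, Ndufa5 fell. It read 7.44 and 7.74 without stimulus, 8.74, 8.94 and 8.03 after IL4, and 7.53, 7.61 and 7.15 after LPS plus IFNg. The IL4 libraries lay above the rest, and the other groups overlapped. Ndufa5 fell by 1.14 (SE 0.29, limma adjusted p = 0.0406). With 1 library left out it passed only without IL4 replicate 3; otherwise its adjusted p was up to 0.117 (without IL4 replicate 1). Ndufa6, a subunit that binds the acyl carrier protein, differed by -1.07 (SE 0.31, adjusted p = 0.0714). Ndufs4, known for its mutations in Leigh syndrome, was the least different of this group at -0.20 (SE 0.37, adjusted p = 0.79), and the group's median was -0.66.

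Of the 9 subunits in the near part of the membrane arm, Ndufa8 and Ndufa13 fell, and the median was -0.51. Ndufa8, on the intermembrane-space side, read 7.36 and 7.89 without stimulus, 8.19, 7.86 and 7.77 after IL4, and 6.97, 6.66 and 5.51 after LPS plus IFNg. Ndufa13 (GRIM-19), which is needed for assembly, read 8.01 and 7.81, then 8.58, 8.26 and 8.47 after IL4, and 7.63, 7.60 and 7.92 after LPS plus IFNg. In both every LPS plus IFNg library was below every IL4 library, with LPS plus IFNg replicate 3 standing low for Ndufa8. Ndufa8 fell by 1.56 (SE 0.40, limma adjusted p = 0.0463) and Ndufa13 by 0.72 (SE 0.19, 0.0487). With 1 library left out, Ndufa8 passed only without LPS plus IFNg replicate 1 (otherwise up to 0.129, without IL4 replicate 1) and Ndufa13 only without unstimulated replicate 2 (otherwise up to 0.139, without LPS plus IFNg replicate 2).

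Of the 10 Ndufb subunits, Ndufb3 and Ndufb8 fell with Ndufb7, and the median was -1.07, the lowest of the arms. Ndufb3 read 7.83 and 7.74 without stimulus, 7.95, 7.96 and 8.27 after IL4, and 7.40, 6.81 and 6.93 after LPS plus IFNg. Ndufb8, whose protein is unstable outside the assembled complex, read 8.42 and 8.87, then 9.54, 8.98 and 9.15 after IL4, and 6.99, 8.30 and 7.76 after LPS plus IFNg. In both the 3 groups did not overlap, in the order IL4, unstimulated, LPS plus IFNg. Ndufb3 fell by 1.01 (SE 0.23, limma adjusted p = 0.0272) and Ndufb8 by 1.54 (SE 0.35, 0.0285). Ndufb3 did not pass without any 1 of the IL4 libraries or without LPS plus IFNg replicate 2 or 3 (up to 0.0853), and Ndufb8 without either unstimulated library, IL4 replicate 1 or 3, or LPS plus IFNg replicate 3 (up to 0.0895).

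**Figure D3:**
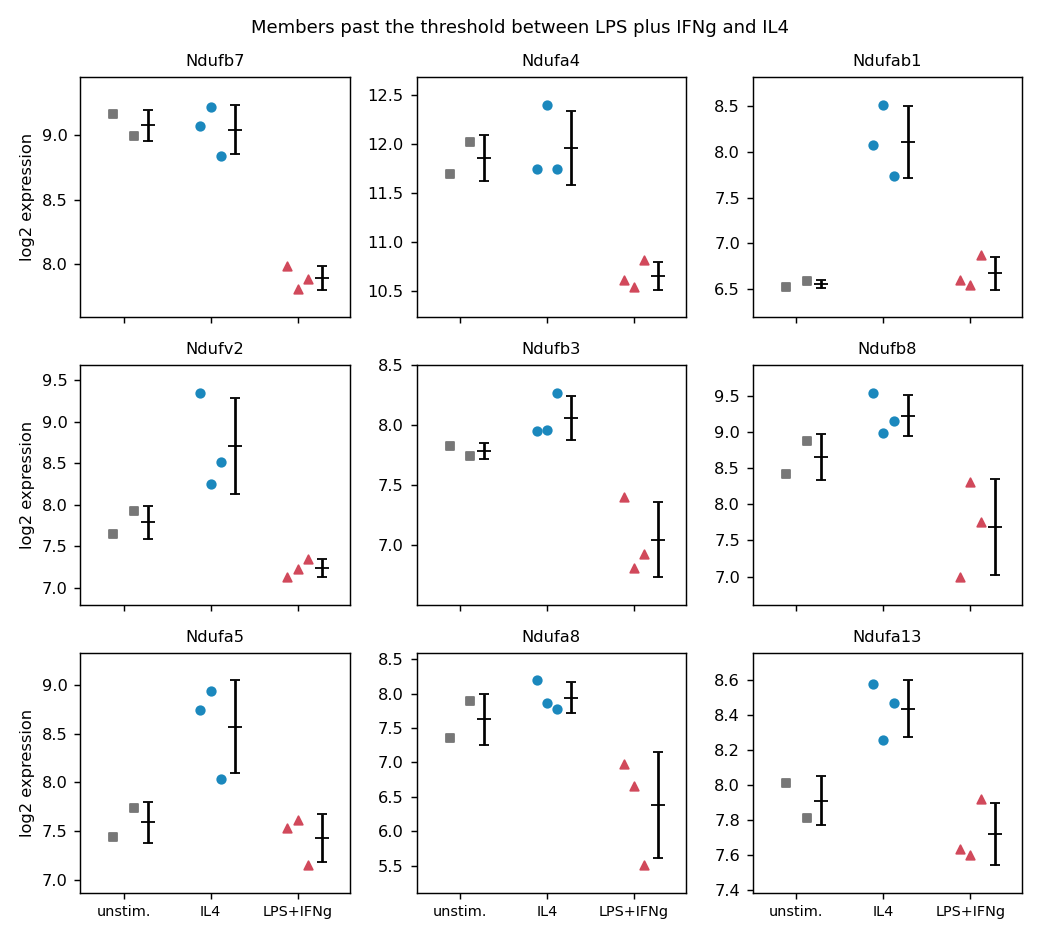
Log2 expression per library (points) with mean ± SD (bars) for the 9 members past the threshold between LPS plus IFNg and IL4; each panel has its own vertical axis. Unstimulated libraries sit near IL4 for Ndufb7 and Ndufa4, near LPS plus IFNg for Ndufab1 and Ndufa5, and between the stimuli for Ndufv2, Ndufb3 and Ndufb8.

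The number of members that fell dropped from 9 to 4 without IL4 replicate 1, LPS plus IFNg replicate 2 or LPS plus IFNg replicate 3, and to 5 without either unstimulated library or IL4 replicate 2. It was 6 without IL4 replicate 3 or LPS plus IFNg replicate 1. The number of all genes that fell also dropped, from 948 to between 658 and 804 with each library left out in turn.

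Ndufa8, Ndufb7, Ndufb10 and Ndufs5 share a fold with paired cysteines that is oxidised on import into the intermembrane space by Chchd4 together with Aifm1; this group was picked after its values had been seen. Ndufs5 differed by -1.22 between the stimuli (SE 0.34, adjusted p = 0.0604) and Ndufb10 by -1.13 (SE 0.41, 0.138), beside the falls of Ndufa8 and Ndufb7. Aifm1 read 6.36 and 6.20 without stimulus, 6.62, 6.24 and 6.75 after IL4, and 4.86, 5.20 and 4.12 after LPS plus IFNg. It fell by 1.81 (SE 0.41, adjusted p = 0.0272), a call lost without IL4 replicate 1 or 3 or LPS plus IFNg replicate 1 or 3 (up to 0.0789). Chchd4 read 4.87 and 5.26, then 5.81, 6.55 and 6.72 after IL4, and 4.66, 5.92 and 4.59 after LPS plus IFNg, and overlapped between the stimuli.

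The 3' ends of 5 members closely match another annotated gene (at least 95% identity over at least 100 bases): Ndufb3, Ndufb9, Ndufb11, Ndufs3 and Ndufs5. The handling of reads that match several places is not given in the sources used, which leaves the values of these 5 less certain, among them Ndufb3, which fell.

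The direction of the members depended on what the libraries were scaled to. The 11 housekeeping genes averaged 9.38 and 9.50 without stimulus, 9.06, 9.39 and 9.32 after IL4, and 8.69, 8.81 and 8.83 after LPS plus IFNg. The 77 cytosolic ribosomal protein genes averaged 10.49 and 10.58, then 10.65, 10.42 and 10.39 after IL4, and 8.93, 8.96 and 9.11 after LPS plus IFNg. Both reference sets were thus lower after LPS plus IFNg in the deposited values; 64 of the 77 ribosomal protein genes fell between the stimuli.

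With libraries set to equal housekeeping means, the median of all genes between the stimuli moved to 0.48 and that of the members to -0.31. Of the members 28 had a lower mean and 1, Ndufa4, fell, while 3.86% of all genes fell. With libraries set to equal ribosomal protein means, all genes moved to a median of 1.49 and the members to 0.70, 3 of 36 had a lower mean, 8 rose and 0 fell, while 49.7% of all genes rose. Against unstimulated, the members' median after LPS plus IFNg was 0.08 and 0.95 under these scalings, with all genes at 0.62 and 1.50. These scalings add the same value to every gene of a library, so they cannot change where the members stand relative to all genes. The members' median minus that of all genes was -0.79 between the stimuli, -0.54 for LPS plus IFNg against unstimulated and 0.38 for IL4 against unstimulated.

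**Figure D4:**
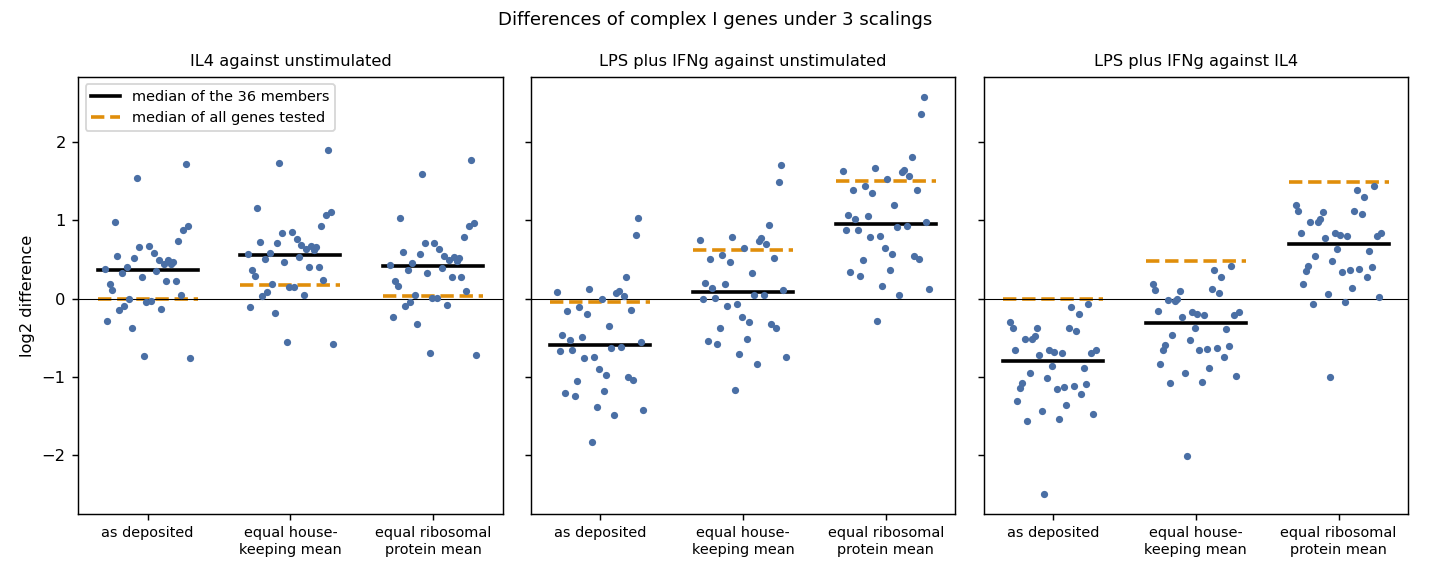
Log2 differences of the 36 members (points) in the 3 comparisons with values as deposited, with equal housekeeping means and with equal ribosomal protein means; solid lines are the members' medians and dashed lines those of all genes tested. The members' median between LPS plus IFNg and IL4 goes from -0.79 to -0.31 and 0.70, and its distance from that of all genes is fixed, since a scaling moves every gene alike.

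The other parts of oxidative phosphorylation gave a like count, with Ndufa4 counted among the complex I members and not in complex IV. Of 35 genes of complexes III and IV and ATP synthase, 9 fell between LPS plus IFNg and IL4 (25.7%), 0 rose, all 35 had a lower mean and the median was -0.73; the difference from complex I was not tested. After IL4, 30 of the 35 had a higher mean than without stimulus, with a median of 0.40. Wholly above were 34.3%, against 11.7% of all genes. After LPS plus IFNg 30 had a lower mean than without stimulus, with a median of -0.41. Of 76 mitochondrial ribosomal protein genes, 73.7% had a higher mean after IL4 (median 0.46). After LPS plus IFNg 61.8% had a lower one (median -0.12). The shift after IL4 was thus not particular to complex I. Against unstimulated, 3 of the 35 fell after LPS plus IFNg (8.57%, against 4.25% of all genes), and none passed after IL4. Without unstimulated replicate 2 none of these 3, Atp5g2, Atp5g3 and Cox4i1, passed. Atp5g3 did not pass with any 1 of the 8 libraries left out (limma adjusted p up to 0.2), and Cox4i1 also not without unstimulated replicate 1, IL4 replicate 1 or LPS plus IFNg replicate 3. Between the stimuli, the largest falls in ATP synthase were Atp5g1 (-2.63, SE 0.50, limma adjusted p = 0.014), Atp5g3 (-1.73, 0.00187) and Atp5g2 (-1.61, 0.00696), which all encode subunit c of the rotor. The largest in complex III was Uqcr11 (-1.64, 0.00783) and in complex IV Cox5b (-1.29, 0.00988). These 5 passed with any 1 library left out, with an adjusted p of at most 0.0457.

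Complex II, the other entry of electrons into the chain, had 1 of 4 genes past the threshold. Sdha, its flavin subunit, read 7.40 and 7.54 without stimulus, 8.50, 8.38 and 8.62 after IL4, and 7.21, 7.49 and 7.38 after LPS plus IFNg. The IL4 libraries stood apart and the other groups overlapped, as for Ndufab1. Sdha fell by 1.14 between the stimuli (SE 0.18, limma adjusted p = 0.00692; at most 0.0254 with any 1 library left out), and IL4 differed from unstimulated by 1.03 (SE 0.20, 0.0671). Sdhd, a membrane anchor, had a higher mean after LPS plus IFNg by 0.45.

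Of 20 measured assembly factors, 3 fell and 1 rose between the stimuli, and the median was -0.51. Besides Aifm1, Ndufaf4 fell by 1.31 (limma adjusted p = 0.0359) and Tmem126b, which helps build the membrane arm, by 1.28 (0.0372). Ndufaf6, listed as 2310030N02Rik, rose by 2.80 (SE 0.73, 0.0467); its values were 4.45 and 4.36 without stimulus, 1.42, 2.54 and 1.17 after IL4, and 4.18, 4.61 and 4.74 after LPS plus IFNg. The IL4 libraries were the low ones. With 1 library left out, Ndufaf4 passed only without IL4 replicate 1 (otherwise up to 0.095), Tmem126b only without IL4 replicate 1 or LPS plus IFNg replicate 3 (up to 0.0991), and Ndufaf6 only without either unstimulated library or IL4 replicate 2 (up to 0.122). Foxred1, another assembly factor, differed by 3.12 (SE 0.97, 0.0869) and was listed at 0 in IL4 replicates 2 and 3. No assembly factor passed against unstimulated in either comparison.

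Of 12 tested regulators of mitochondrial gene expression, Ppargc1b (PGC-1 beta), a coactivator of these genes, was the only one past the threshold after IL4. It read 5.84 and 4.60 without stimulus, 8.63, 7.88 and 9.34 after IL4, and 7.82, 7.64 and 6.75 after LPS plus IFNg. Every library of both stimuli lay above the unstimulated ones. Ppargc1b rose by 3.39 against unstimulated after IL4 (SE 0.57, limma adjusted p = 0.0434) and differed by 2.18 after LPS plus IFNg (SE 0.57, 0.0655). With 1 library left out, its call after IL4 held only without IL4 replicate 2, and its adjusted p was otherwise up to 0.212. Between the stimuli Tfb2m, a mitochondrial transcription factor, fell by 1.51 (0.00623), Hif1a, the hypoxia-inducible factor subunit, rose by 1.20 (0.0084) and Esrra, a nuclear receptor partner of the PGC-1 coactivators, rose by 1.16 (0.0269). Against unstimulated, Tfb2m fell by 1.15 (0.0398) and Hif1a rose by 1.79 (0.00446) after LPS plus IFNg. Both calls of Hif1a, and that of Tfb2m between the stimuli, held with any 1 library left out; that of Tfb2m against unstimulated held only without IL4 replicate 2 (otherwise up to 0.123), and that of Esrra only without either unstimulated library or IL4 replicate 1 (up to 0.0873). Ppargc1a was listed at 0 in all libraries.

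**Figure D5:**
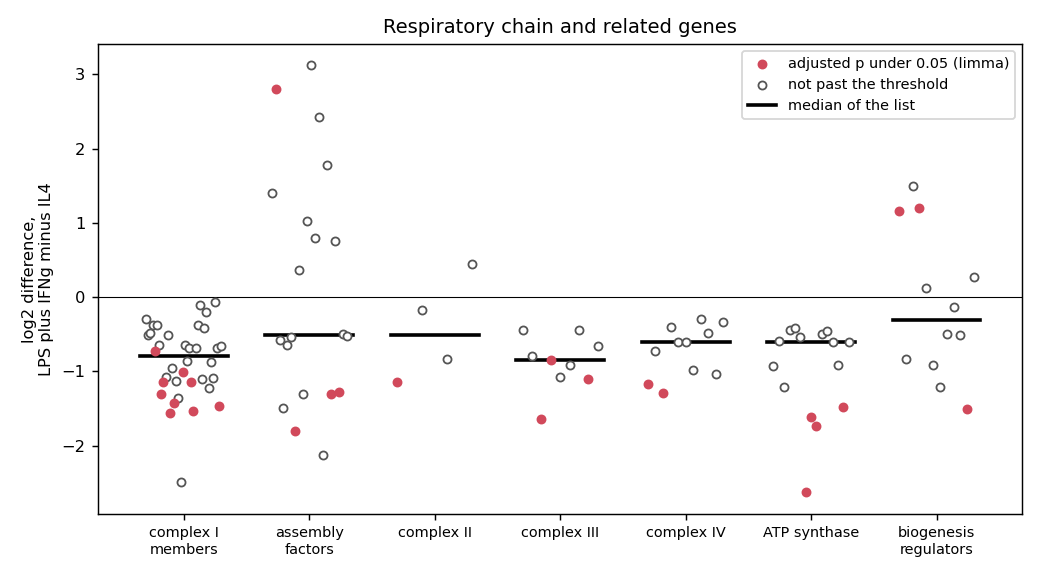
Log2 difference between LPS plus IFNg and IL4 for each gene (points) of complex I, its assembly factors, the other complexes, ATP synthase and regulators; filled points passed an adjusted p of 0.05 in limma and lines are list medians. Every list median lies below 0, from -0.85 for complex III to -0.31 for the regulators. Single genes of the assembly factors, the regulators and complex II lie on both sides of 0.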

How the data were processed

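The labels' protocols describe bead capture of polyadenylated RNA, reverse transcription from barcoded oligo-dT primers, pooling of samples by their Actb level and PCR of strand-specific libraries from the 3' ends, with no molecular identifiers named. TopHat and build mm9 appear in the submitters' processing notes; versions and the counting step are not given in the sources used. The authors deposited log2 expression values in 1 table whose name says quantile normalised, with 20259 rows and 8 value columns, matched to samples by barcode. No source used here says what was done with zero counts.

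Of these rows 1 had no symbol and 6643 had 1 same value in every library; 13615 genes were tested. A model with 1 mean per group was fitted over the 8 libraries in limma 3.58.1 (R 4.3.3). It had 5 residual and 2.31 prior degrees of freedom, the prior variance following intensity. Tests were two-sided with Benjamini-Hochberg adjustment over all genes tested and a threshold of 0.05. SE is the moderated standard error of a log2 difference, and folds are 2 to the power of its size. The 36 members, the other gene lists and the tests were chosen with earlier results of these data known, so they are described by counts and medians beside all genes.

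Library values are given for members past the threshold in any comparison, for core matrix-arm subunits, and for the largest difference in each comparison. From each other list, up to 3 genes past the threshold and 1 not past it were eligible per comparison. Alternatives covered the prior trend, the samples in the fit, filters on low values, 1 added on the linear scale, 2 scalings, array weights, a replicate block and each library left out. Near-identical 3' ends were searched with blastn 2.17.0 using the last 500 bases of GENCODE M21 transcripts. Promoter sequences are from RefSeq, GRCm38.p6. Genes of complex I outside the 36 members are not reported here.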

Additional observations from a re-analysis of the deposited data

How the results depend on the processing

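For LPS plus IFNg against IL4, members that fell numbered 9 with array weights or with 1 added on the linear scale, 7 with only the 2 groups compared, and 10 with the genes under the 0.25 quantile of the mean or genes with a mean below 5 left out, where Ndufa6 and Ndufs5 passed and Ndufa13 did not. All genes that fell numbered 930 with array weights and 956 with 1 added, of 13615 each. They numbered 857 of 12847 with only the 2 groups compared, and 1139 of 10211 and 980 of 7283 under the filters. Without the intensity trend 4 members (Ndufa4, Ndufab1, Ndufb7 and Ndufv2) and 776 of 13615 genes fell. Against unstimulated, 1 member (Ndufb7) and 421 genes fell without it. The cause of these drops was not tested. Array weights gave 3 against unstimulated, beside 736 of 13615 genes, with Ndufa2 (limma adjusted p = 0.046) added to Ndufa4 and Ndufb7. With genes of mean below 5 left out, 1 member rose after IL4 (Ndufab1). In that comparison the genes higher after IL4 numbered 110 and 113 under the filters against 70, and 7 higher and 0 lower with only the 2 groups compared.

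With equal housekeeping means, IL4 against unstimulated gave 70 genes lower, 4 members with a lower mean and a member median of 0.55. LPS plus IFNg against unstimulated gave 1038 genes higher and 256 lower, 0 members that fell, 14 with a lower mean and a median of 0.08, and against IL4 1347 higher and 525 lower, 1 member that fell and a median of -0.31. With equal ribosomal protein means, LPS plus IFNg against unstimulated gave 5729 genes higher and 176 lower, 14 members that rose and 0 that fell, 1 with a lower mean and a median of 0.95; against IL4 it gave 6769 higher and 284 lower, 8 members that rose and 0 that fell, 3 with a lower mean and a median of 0.70. These turns follow from the scalings' own construction, since the reference genes were lower after LPS plus IFNg. The members that passed before or after this scaling and turned direction, with their values under it, were, against unstimulated, Ndufa2 0.87, Ndufa4 0.34, Ndufa5 1.38, Ndufa6 1.01, Ndufa10 1.43, Ndufa13 1.34, Ndufb6 1.52, Ndufb7 0.36, Ndufs6 1.39 and Ndufv2 0.98, and, against IL4, Ndufa2 1.12, Ndufa4 0.18, Ndufa5 0.35, Ndufa7 0.98, Ndufa10 0.98, Ndufa13 0.77, Ndufab1 0.06, Ndufb3 0.48, Ndufb7 0.34, Ndufc1 1.12, Ndufc2 1.38, Ndufs3 1.08, Ndufs4 1.29 and Ndufv2 0.02.

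Deviations of same-numbered libraries from their group means correlated between -0.08 and 0.07 across genes with a mean of at least 5. Those of different-numbered libraries correlated between -0.07 and 0.08. In groups of 2 or 3 libraries the deviations must sum to 0, so these values cannot settle whether libraries were paired. With the replicate block, IL4 against unstimulated gave 7 genes higher and 1 lower, and LPS plus IFNg against unstimulated 255 higher and 256 lower with 0 members. Between LPS plus IFNg and IL4 it gave 691 genes lower, and 4 members fell (Ndufa4, Ndufa5, Ndufab1 and Ndufb7).

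With each library left out in turn, IL4 against unstimulated gave 36 to 123 genes higher and 45 to 183 lower, 0 members, 8 to 12 with a lower mean and medians of 0.29 to 0.40. LPS plus IFNg against unstimulated gave 341 to 556 higher, 309 to 598 lower, 1 to 2 members that fell, 26 to 31 with a lower mean and medians of -0.68 to -0.46. Against IL4 it gave 580 to 774 higher, 658 to 804 lower, 4 to 6 members that fell, 32 to 36 with a lower mean and medians of -0.96 to -0.68. Where 1 unstimulated library remained, it is assumed to vary like the other groups. Depth is unknown, so no limit on low genes such as Ndufb2 can be given.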
